A study of Mus musculus with 23 samples.

Results

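Integrins are receptors of the cell surface built from 1 α and 1 β chain, and laminins are secreted trimers of 1 α, 1 β and 1 γ chain that form the sheet-like core of basement membranes. The genes examined were the integrin α and β subunits (Itga and Itgb symbols) and the laminin α, β and γ subunits (Lama, Lamb and Lamc symbols), without the integrin-binding proteins whose names begin with Itgb1bp, Itgb3bp or Itgbl. Of 18512 gene symbols in the pancreas RNA-seq files, 38 had such a name, and the 32 with at least 10 counts in 7 or more mice were described, 22 integrin and 10 laminin subunits. All 32 were among the 12500 genes tested.

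The transcriptome was measured in the head of the pancreas of 23 C57BL/6 mice. An age of 6 to 8 weeks was given for the mice used to induce pancreatitis, and the age at tissue collection was not stated. Pancreatitis was induced by caerulein, a cholecystokinin analogue, given intraperitoneally at 50 µg/kg in 8 hourly injections on each of 2 consecutive days. Tissue came from 8 non-injured mice (baseline, 4 females and 4 males), 8 mice at day 7 post-injury (4 females and 4 males) and 7 mice at day 14 post-injury (3 females and 4 males). The mice carried no labelled genetic change, and no sequencing batch or date was given in the labels. In the mapping statistics of the paper, every day 14 library used had a lower share of 5′ UTR exon reads than every other library. Every day 7 library had a higher share of 3′ UTR exon reads and a lower duplicate rate than every baseline library. A female day 14 library was left out by the authors for poor mapping. The part of these library traits in the day 7 and day 14 differences was not tested. Because whole tissue was sequenced, fewer cells of a type and less RNA per cell cannot be told apart.

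In epithelia, integrin α6β4 anchors cells to laminin through hemidesmosomes, in which the cytolinker plectin ties β4 to keratins. Integrin β1 pairs with most α chains, among them the laminin-binding α3, α6 and α7 and the collagen-binding α1, α10 and α11. Among laminins, α3 and β3 join in a trimer found under epithelia, whereas β1 and γ1 join with α2, α4 or α5 in most other basement membranes. Leukocytes carry a group of their own, in which β2 pairs with αL (LFA-1), αM (CD11b, on macrophages and neutrophils) or αX (CD11c), and β7 pairs with α4 or αE.

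Total counts ranged from 7059890 to 9567446 per mouse, and the 32 subunits held 0.0597% of them at baseline, 0.0864% at day 7 and 0.0745% at day 14 (means over mice). Acinar enzyme genes dominated the libraries, with a mean of 69.4% of counts in the 20 most abundant genes at baseline, 60.3% at day 7 and 65.0% at day 14. Counts were therefore scaled with TMM factors, which are set by the bulk of the genes. When libraries were scaled by their total counts instead, the median log2 fold change of all 12500 genes was 0.48 at day 7 and 0.22 at day 14, against 0.02 and 0.01 with TMM, so all changes given here are relative to the bulk of genes. A log2 fold change was called when its adjusted p (edgeR, over all genes tested) was at most 0.05 and the fold change at least 1.5.

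The regions before the annotated starts are shown for 3 laminin genes at the centre of the results: Lama2 and Lamb1, which were higher at both time points, and Lama5, which was lower at day 7. They are from RefSeq (GRCm38.p6), 5′ to 3′ on the strand of the gene, and end at the base before the RefSeq start (Lama2, Lama5) or 59 bases before it (Lamb1, where an annotated transcript begins further upstream). Capitals mark matches on either strand to the GC box (letters GGGCGG), to the box named CCAAT after its letters, to the TATA box (letters TATAAA) or to sites that AP-1 (letters TGANTCA) and TEAD factors (letters GGAATG) can bind. No letters of 1 motif overlapped those of another in these windows.
Lama2, chr10:27616943-27617192, - strand: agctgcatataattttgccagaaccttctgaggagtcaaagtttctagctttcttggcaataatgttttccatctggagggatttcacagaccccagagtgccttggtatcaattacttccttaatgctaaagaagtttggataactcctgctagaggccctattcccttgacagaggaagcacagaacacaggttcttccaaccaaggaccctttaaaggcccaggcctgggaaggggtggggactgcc
Lamb1, chr12:31265043-31265233, + strand: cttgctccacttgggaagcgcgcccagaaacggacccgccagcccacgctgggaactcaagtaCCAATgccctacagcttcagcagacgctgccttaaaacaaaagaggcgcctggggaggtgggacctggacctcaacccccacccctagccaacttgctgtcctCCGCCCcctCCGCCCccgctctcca
Lama5, chr2:180225860-180226109, - strand: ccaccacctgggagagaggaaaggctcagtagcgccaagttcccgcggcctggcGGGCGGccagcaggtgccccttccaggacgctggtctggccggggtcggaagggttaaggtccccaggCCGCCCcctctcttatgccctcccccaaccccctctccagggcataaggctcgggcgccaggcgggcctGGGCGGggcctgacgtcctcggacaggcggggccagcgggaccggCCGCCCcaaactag
The RefSeq start of Lama2 lies inside the longer GENCODE gene, so its window lies within that gene. The Lama2 window held none of the 5 motifs, the Lamb1 window held 1 CCAAT box and 2 GC boxes, and the Lama5 window held 4 GC boxes. In the 250 bases before the start, a GC box was found in 32.7% of all 32841 promoters of the table and in 9 of the 24 promoters listed for 21 of the 32 subunits. The TATA box was found in 0 of these 24 and in 12.4% of all promoters, the CCAAT box in 4 and 33.9%, the AP-1 site in 1 and 6.75%, and the TEAD site in 3 and 12.6%. A match is a run of letters, not a site known to be used.

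At baseline the subunits spanned a wide range of levels. Per kilobase of exon, Itgb1 (integrin β1) had 229 ± 15.4 normalized counts (SD, n = 8) and Itga6 (integrin α6) had 172 ± 20.7, and the highest value of any other member in any mouse was 67.5 (Lamb3). The ranges of Itgb1 and Itga6 over the mice overlapped, and their order turned when the longest transcript was used as the length (245 and 360). Lamc1 (laminin γ1) followed at 50.3 ± 4.08, Lamb3 (laminin β3) at 50.2 ± 7.87 and Itgb4 (integrin β4) at 47.8 ± 9.45, and these 3 could not be ordered beyond their spread. From Lamc1 down to Lama4 (laminin α4) at 15.02 ± 1.20, each of ranks 3 to 15 overlapped its neighbour in the order. A gap without overlap then separated Lama4 from Itga5 (the fibronectin receptor chain α5) at 8.05 ± 2.05, and the lowest member was Itga8 (integrin α8, of smooth muscle and mesenchyme) at 1.08 ± 0.891.

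**Figure D1:**
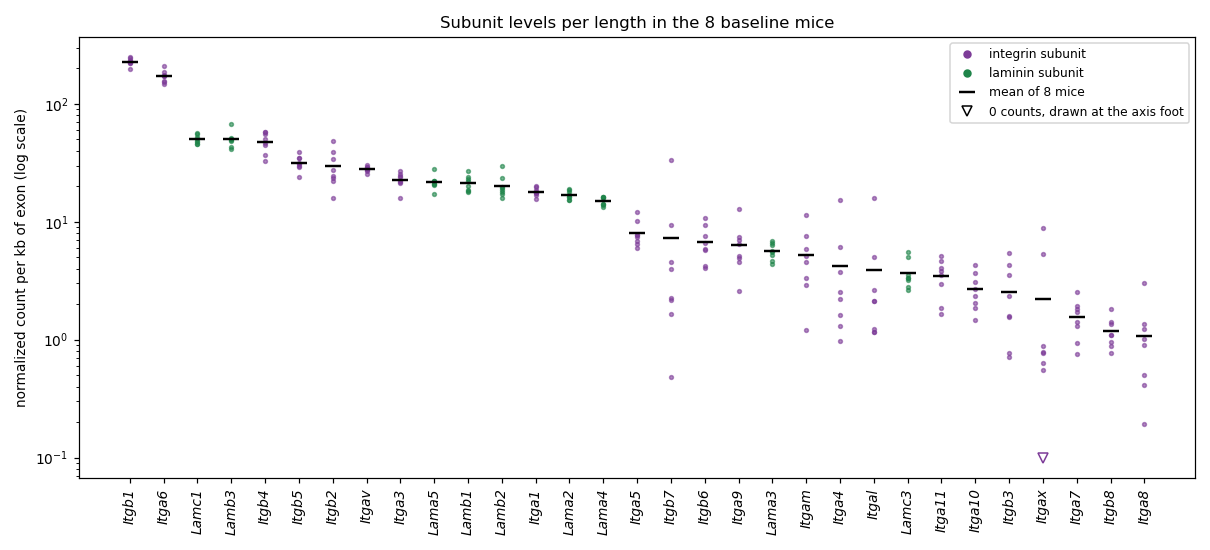
Normalized counts per kilobase of exon (log scale) of 31 of the 32 subunits in each of the 8 baseline mice (points) with their mean (bar), in order of the mean. Itgb1 (229) and Itga6 (172) lie apart from the others, 15 members have a mean of at least 10, and leukocyte genes such as Itgb7, Itga4 and Itgal have single mice far above the rest.

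Among laminin α chains at baseline, Lama5 (α5, of mature epithelial and vascular basement membranes) had 21.7 ± 3.01 normalized counts per kilobase of exon, Lama2 (α2, of muscle, nerve and interstitial basement membranes) 16.9 ± 1.47, Lama4 (α4, typical of vessels) 15.02 ± 1.20 and Lama3 (α3) 5.67 ± 0.913 (SD, n = 8). By the longest transcript, Lama4 (30.0) and Lama2 (28.7) lay above Lama5 (21.7), so the order of these 3 depended on the length used, while Lama3 was lowest with either. The α3 and β3 chains of the epithelial trimer were unequal, with 50.2 ± 7.87 for Lamb3 against 5.67 ± 0.913 for its partner Lama3. Lama1 (α1, of embryonic basement membranes) had at most 5 counts in any mouse.

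The question of the day 7 comparison was whether subunit transcripts differed from baseline 1 week post-injury. Laminin chains α2, α4, β1 and γ1 rose together with integrin β1 and αM, and integrin β4 with laminin α3, α5 and γ3 fell. With an adjusted p of at most 0.05, 6 of 32 subunits (18.8%) were higher, against 8.5% of all genes tested, and 4 (12.5%) were lower, against 9.49% of all genes. With the fold threshold, 3 (Lama2, Lamb1 and Itgam) were called higher, where 3.75% of all genes were, and 1 (Lamc3) lower, where 1.34% were. The median log2 fold change over the 32 was 0.23, with 23 above and 9 below 0, and that of all genes was 0.02. Scaled by total counts, 22 subunits (of 32) passed as higher, where 75.1% of all genes did, and 0 as lower, where 0.528% did.

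Lama2 had normalized counts of 248, 270 and 311 (lowest, median and highest of the 8 mice) at baseline and 357, 462 and 558 at day 7. All 8 day 7 mice lay above all 8 baseline mice. The log2 fold change was 0.75 ± 0.08 (SE), with an adjusted p of 2.36e-07, the smallest of the 32.

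Lamb1, the β chain that partners α2, α4 and α5, had 176, 211 and 270 normalized counts at baseline and 294, 322 and 346 at day 7, again with no overlap between the groups. Its log2 fold change was 0.60 ± 0.08 (adjusted p 9.84e-06). Lama4 had 160, 183 and 196 normalized counts at baseline and 198, 251 and 296 at day 7, with all 8 day 7 mice above baseline and a log2 fold change of 0.48 ± 0.09 (adjusted p 0.000488). Lamc1, the γ chain of nearly all of these trimers, had 375, 410 and 464 normalized counts at baseline and 481, 489 and 632 at day 7. Its groups did not overlap either, although the change was smaller, a log2 fold change of 0.30 ± 0.06 (adjusted p 0.00187). The highest Lamc1 value belonged to mouse 13, and without that mouse the log2 fold change was 0.25.

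Of the integrin chains, Itgb1 had 814, 929 and 1015 normalized counts at baseline and 1005, 1064 and 1094 at day 7, and 6 of 8 day 7 mice lay above all baseline mice. This was a log2 fold change of 0.17 ± 0.05 (adjusted p 0.012), and without 4 mice rich in lymphocyte markers it was 0.13 (adjusted p 0.0713). Itgam, coding for CD11b, had 6.07, 24.2 and 56.9 normalized counts at baseline and 34.3, 49.0 and 59.6 at day 7. The Itgam ranges overlapped widely, and its log2 fold change was 0.84 ± 0.24 (adjusted p 0.0169, and 0.0544 when only baseline and day 7 mice were fitted). Itgb2, whose β2 chain pairs with αM, was at 0.145 ± 0.274 and did not pass (adjusted p 0.755).

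Itgb4, which pairs with α6 alone, had 230, 342 and 407 normalized counts at baseline and 209, 242 and 300 at day 7, and 4 of 8 day 7 mice lay below all baseline mice. The log2 fold change was -0.44 ± 0.11 (adjusted p 0.00565). Its partner Itga6 had a log2 fold change of -0.26 ± 0.10 and did not pass (adjusted p 0.0639). Lama3 had 46.9, 60.3 and 74.3 normalized counts at baseline and 34.7, 45.8 and 58.2 at day 7, with 5 of 8 day 7 mice below baseline and a log2 fold change of -0.42 ± 0.12 (adjusted p 0.0174). Lamb3, which joins α3, was at -0.24 ± 0.10 and did not pass (adjusted p 0.0771).

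Lama5 had 194, 245 and 317 normalized counts at baseline and 182, 205 and 241 at day 7, with a log2 fold change of -0.26 ± 0.09 (adjusted p 0.0404). Lamc3 (laminin γ3, a rare γ chain) had 16.02, 20.3 and 33.7 normalized counts at baseline and 6.48, 15.1 and 23.9 at day 7, with a log2 fold change of -0.59 ± 0.20 (adjusted p 0.0391). Of the 8 day 7 mice, 3 lay below all baseline mice for Lama5 and 4 for Lamc3. The adjusted p of Lama5 no longer passed in 10 and that of Lamc3 in 9 of the 23 fits that left out 1 mouse. Scaled by total counts, the day 7 log2 fold change was 0.01 for Itgb4, 0.03 for Lama3 and 0.19 for Lama5, so their fall was relative to the bulk of genes. That of Lamc3 stayed negative with this scaling, at -0.14, and did not pass.

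**Figure D2:**
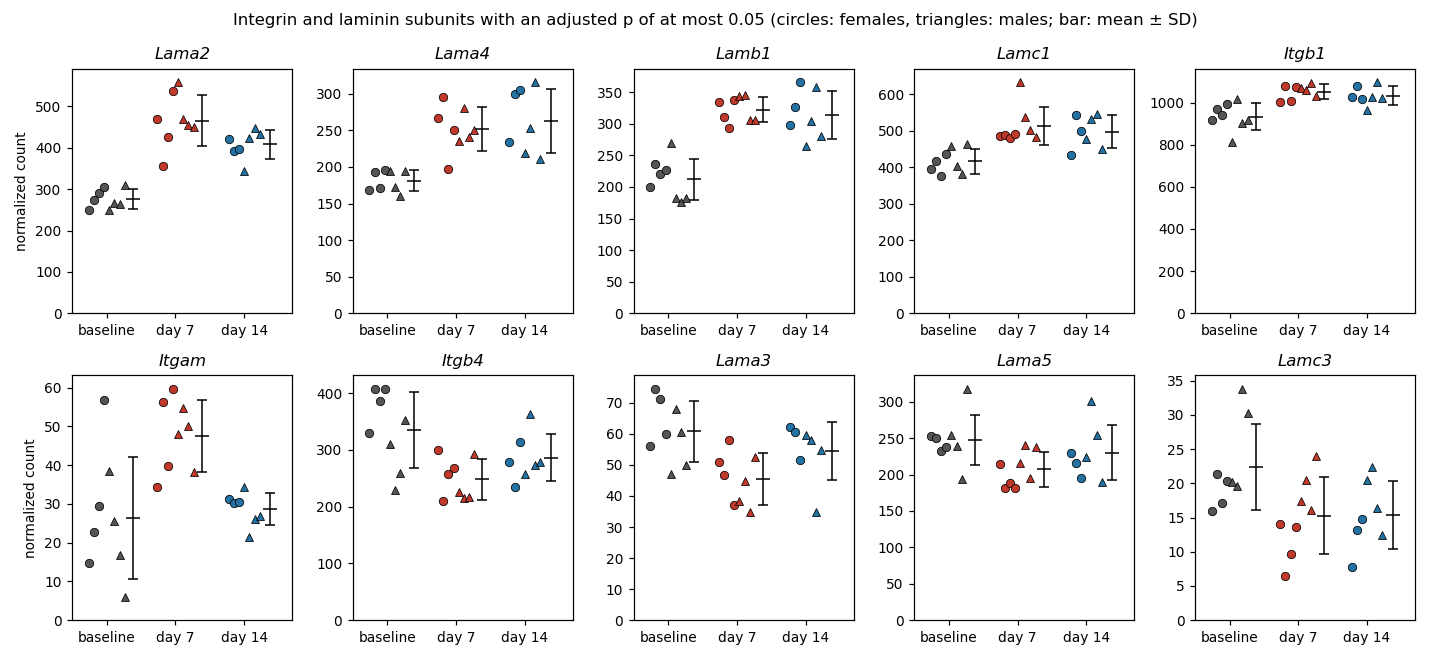
Normalized counts of the 10 subunits with an adjusted p of at most 0.05, by mouse (circles, females; triangles, males) at baseline (n = 8), day 7 (n = 8) and day 14 (n = 7), with mean ± SD. Lama2, Lama4, Lamb1 and Lamc1 at day 7 lie wholly above baseline, while the 4 subunits that were lower at day 7 overlap with it.

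The other 22 subunits did not pass at day 7. Their log2 fold changes ran from -0.26 to 1.12, with 17 above and 5 below 0, standard errors of 0.06 to 0.97 and a smallest adjusted p of 0.0639. The laminin-binding Itga3 was at -0.22 ± 0.10 and Itga7 at 0.10 ± 0.32. The collagen-binding Itga1 was at -0.11 ± 0.06, Itga10 at 0.05 ± 0.22 and Itga11, of fibroblasts, at 0.59 ± 0.22 (adjusted p 0.0648). Among chains that bind the RGD sequence of fibronectin and vitronectin, Itga5 was at 0.05 ± 0.15 and Itgav at 0.09 ± 0.06. Of the β chains that pair with αv, Itgb5 was at 0.21 ± 0.08 (adjusted p 0.0728), Itgb3 at 0.66 ± 0.40, Itgb6 at -0.03 ± 0.17 and Itgb8 at 0.45 ± 0.24. Itgb7 (1.12 ± 0.97) and Itga8 (0.98 ± 0.60) had the largest values and some of the widest errors, and a change of this size was not detectable in these mice.

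**Figure D3:**
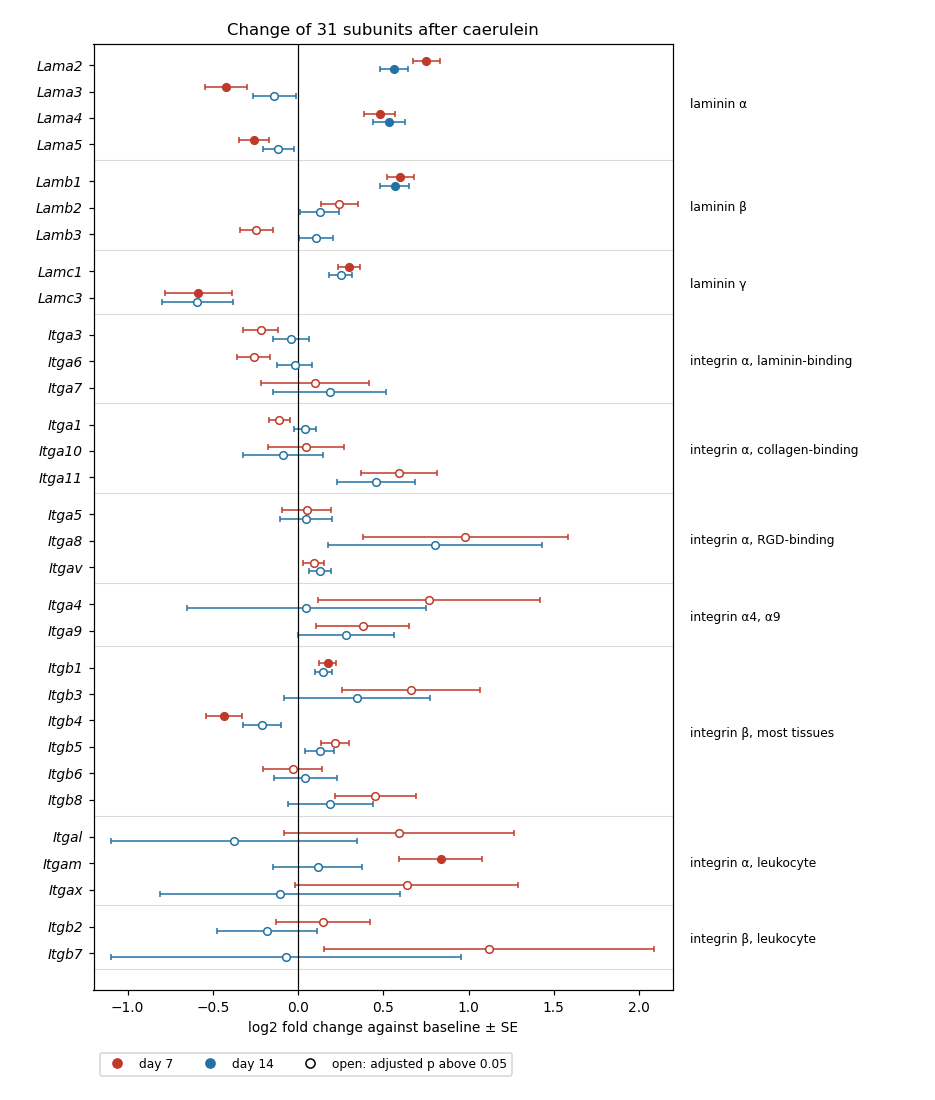
Log2 fold change ± SE against baseline at day 7 (red) and day 14 (blue) for 31 of the 32 subunits, grouped by role, with open symbols where the adjusted p was above 0.05. Day 14 and day 7 share the baseline mice. Filled symbols at both times appear for Lama2, Lama4 and Lamb1, and the widest bars belong to leukocyte chains.

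At day 14 the question was which differences were still present 2 weeks post-injury. Lama2, Lamb1 and Lama4 were higher than baseline by the adjusted p (3 of 32, where 0.984% of all genes were higher), and 0 subunits were lower, where 0.504% of genes were. None reached the fold threshold with edgeR, which 0.672% of all genes did upwards and 0.088% downwards. DESeq2 called 0 subunits with the fold threshold too, where it called 0.562% of genes. With edgeR, 6 subunits had an unadjusted p under 0.05, where 13% of all genes did. The median log2 fold change over the 32 was 0.11, against 0.01 over all genes.

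Lama2 had 343, 421 and 448 normalized counts at day 14 (lowest, median and highest of 7 mice), all 7 above every baseline mouse, and a log2 fold change of 0.56 ± 0.08 (adjusted p 0.000211). Lamb1 had 265, 305 and 366, with 6 of 7 mice above baseline and a log2 fold change of 0.57 ± 0.08 (adjusted p 0.000325). Lama4 had 211, 253 and 316, all 7 above baseline, with a log2 fold change of 0.53 ± 0.09 (adjusted p 0.00175). These 3 changes correspond to folds of 1.48, 1.48 and 1.45, just under the threshold of 1.5, and without the 4 mice rich in lymphocyte markers 2 of them passed it (log2 fold changes 0.67 for Lamb1 and 0.59 for Lama4).

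Lamc1 had 433, 499 and 546 normalized counts at day 14, with 5 of 7 mice above baseline, and narrowly missed the threshold (0.25 ± 0.07, adjusted p 0.0567). Itgb1 had 963, 1028 and 1095, a log2 fold change of 0.15 ± 0.05 (adjusted p 0.15). Both passed with DESeq2. Itgam lay within the baseline range, at 21.4, 30.3 and 34.4 normalized counts (0.11 ± 0.26, adjusted p 0.93). Itgb4 had 235, 279 and 364 normalized counts and was at -0.21 ± 0.11 (adjusted p 0.435). Lama3 had 34.9, 58.1 and 62.3 (-0.14 ± 0.13, adjusted p 0.719), and Lama5 had 190, 224 and 302 (-0.12 ± 0.09, adjusted p 0.661). Lamc3 had 7.79, 14.8 and 22.4 normalized counts and -0.59 ± 0.21, the same size as at day 7, with an adjusted p of 0.172. The log2 fold changes of the other 22 subunits at day 14 ran from -0.38 to 0.80. Of these, 15 were above and 7 below 0, and the smallest adjusted p was 0.391.

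Tested directly, 0 of 32 subunits passed between day 14 and day 7 by the adjusted p of edgeR, where 1.22% of all genes did. An unadjusted p under 0.05 was reached by 6 subunits, where 13.8% of all genes reached it. DESeq2 passed 1 as higher at day 14, where it passed 1.4% of genes as higher. The smallest adjusted p was that of Lamb3 (0.0714), which went from 283 to 343 in the median normalized count, a log2 difference of 0.35 ± 0.10. Itgam differed by -0.72 (adjusted p 0.155). The differences of Lama2 (-0.19), Lama4 (0.05), Lamb1 (-0.03) and Lamc1 (-0.05) were small beside their rises over baseline.

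The ratio of the counts of 2 subunits within a mouse does not depend on how libraries are scaled. The 5 pairs below were chosen after their values were seen, each a chain that was higher at day 7 set against one of the same class with a negative fold change, and are given as a description without a test. The ratio of Lama2 to Lama5 ran from 0.975 to 1.36 (median 1.10) at baseline, from 1.90 to 2.96 (median 2.23) at day 7 and from 1.41 to 2.28 (median 1.82) at day 14. No mouse of day 7 or day 14 fell into the baseline range of this ratio. The ratio of Lamb1 to Lamb3 had medians of 0.654, 1.17 and 0.897 at the 3 times, with 8 of 8 day 7 mice and 4 of 7 day 14 mice above all baseline mice. That of Lama4 to Lama3 had medians of 2.83, 6.20 and 4.35, with 7 of 8 and 4 of 7 mice above baseline, and that of Lamc1 to Lamc3 had 20.95, 35.3 and 33.8, with 7 of 8 and 5 of 7 above. For Itgb1 to Itgb4 the medians were 2.60, 4.36 and 3.69, and the groups overlapped, with 4 of 8 and 1 of 7 mice above baseline.

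**Figure D4:**
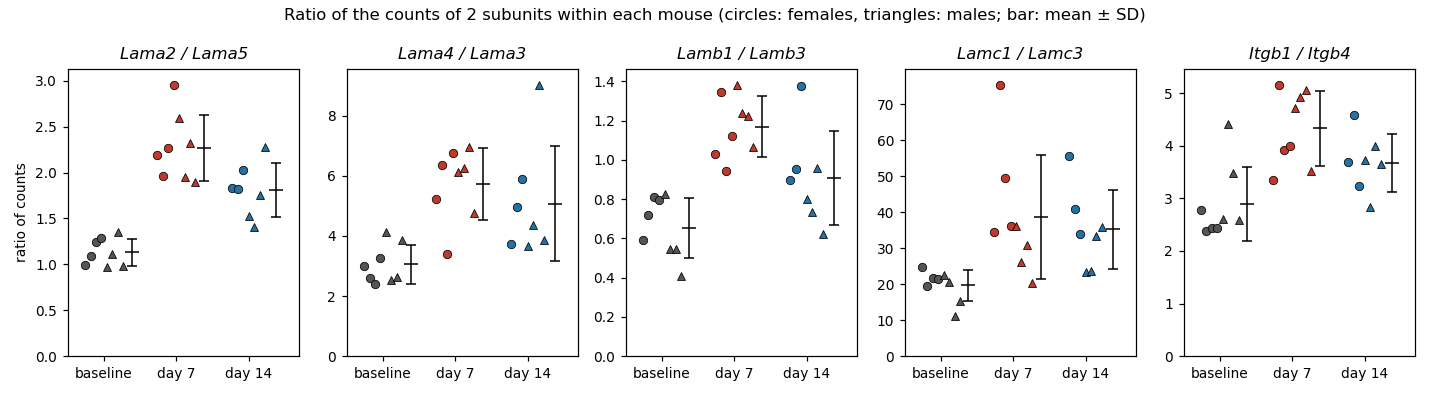
Ratio of the counts of 2 subunits within each mouse (circles, females; triangles, males) with mean ± SD at baseline, day 7 and day 14. The Lama2 to Lama5 ratio lies above all baseline mice in every mouse of day 7 (1.90 to 2.96) and day 14 (1.41 to 2.28), and the Itgb1 to Itgb4 ratio overlaps with baseline.

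Markers of other cell types moved at the same time points, and their part in the subunit changes was not tested. Of 9 fibroblast markers, 6 were called higher at day 7 and 2 at day 14. Their summed level lay between 317 and 630 CPM in baseline mice, between 596 and 1146 in day 7 mice and between 502 and 713 in day 14 mice. Pdgfra, the PDGF receptor of fibroblasts, was at 0.87 and Lum (lumican) at 1.41 (log2 fold changes at day 7). Of 10 macrophage markers, 9 were called higher at day 7 and 0 at day 14, with sums of 55.0 to 205 CPM, 132 to 306 and 90.9 to 175. Of 8 endothelial markers 3 (Cdh5, Kdr and Plvap) had an adjusted p of at most 0.05 and were lower at day 7, with sums of 94.1 to 151, 77.1 to 130 and 100 to 136. By the adjusted p alone, 2 of 10 ductal markers were higher at day 7 (Krt7 and Epcam). The median log2 fold change over the 10 was -0.02. Of 10 acinar markers, 9 were lower at day 7 and 5 at day 14 by the adjusted p alone. With the fold threshold, 1 ductal marker was higher and 5 acinar markers were lower at day 7, and 0 of either list at day 14. Of 8 islet markers tested 3 were called higher at day 7 and 0 at day 14, with sums of 131 to 553 CPM, 399.6 to 1140.5 and 432 to 856. Of 4 Schwann cell markers tested, 1 was higher at day 7 and 0 at day 14 by the adjusted p. Of 7 smooth muscle and pericyte markers tested, 0 passed at either day. None of these markers was at 0 in all mice.

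Leukocyte integrin chains spread widely between mice of the same group. Itgal (αL) had 7.56, 14.0 and 105 normalized counts at baseline (lowest, median and highest), 10.5, 19.8 and 137 at day 7 and 9.74, 11.2 and 59.5 at day 14. The highest values belonged to mouse 5 at baseline, mouse 10 at day 7 and mouse 21 at day 14, and these mice, with mouse 15 of day 7, also had the highest summed lymphocyte markers, 65.7 to 119 CPM against at most 19.6 in the other 19 mice. In all 3 groups, Itgal, Itgb7, Itga4, Itgax, Itgb2 and Itga9 were higher in these mice than in every mouse of the same group outside the 4. How many of all genes did the same was not counted, and baseline and day 14 held 1 of the 4 mice each. For Itgb7 (β7, a homing receptor chain of lymphocytes) the 4 mice had 85.6 to 177 normalized counts and the other mice of their groups at most 28.0. For Itgam they lay within the range of the others at baseline and day 7. Mice 5, 10 and 21 also had the highest summed macrophage (205, 306 and 175 CPM), endothelial (151, 130 and 136 CPM) and adipocyte markers (94.2, 202 and 104 CPM) of their groups, and which of these the subunits went with was not tested.

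Without these 4 mice, the day 7 log2 fold changes were 0.44 ± 0.32 for Itgal, 0.68 ± 0.43 for Itga4 and 0.93 ± 0.60 for Itgax, none of which passed. Itgam was at 0.90 ± 0.26 (adjusted p 0.0221), so its rise was as large without them. Its partner Itgb2 was at 0.0036 ± 0.197 (adjusted p 0.995). The members Lama2 (0.79), Lamb1 (0.69), Lama4 (0.46) and Lamc1 (0.32) passed in these 19 mice too. In all, 9 subunits passed, where 15.6% of genes did. Among the 9 were Lamb2 (0.34, adjusted p 0.0296) and Itgb5 (0.27, adjusted p 0.04), which did not pass with all mice. Itgb1, Lama5 and Lamc3 did not pass without the 4 mice. Neutrophil markers, 5 of 7 of which were in the files, summed to at most 15.4 CPM in any mouse and 0 of them reached the tested genes.

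**Figure D5:**
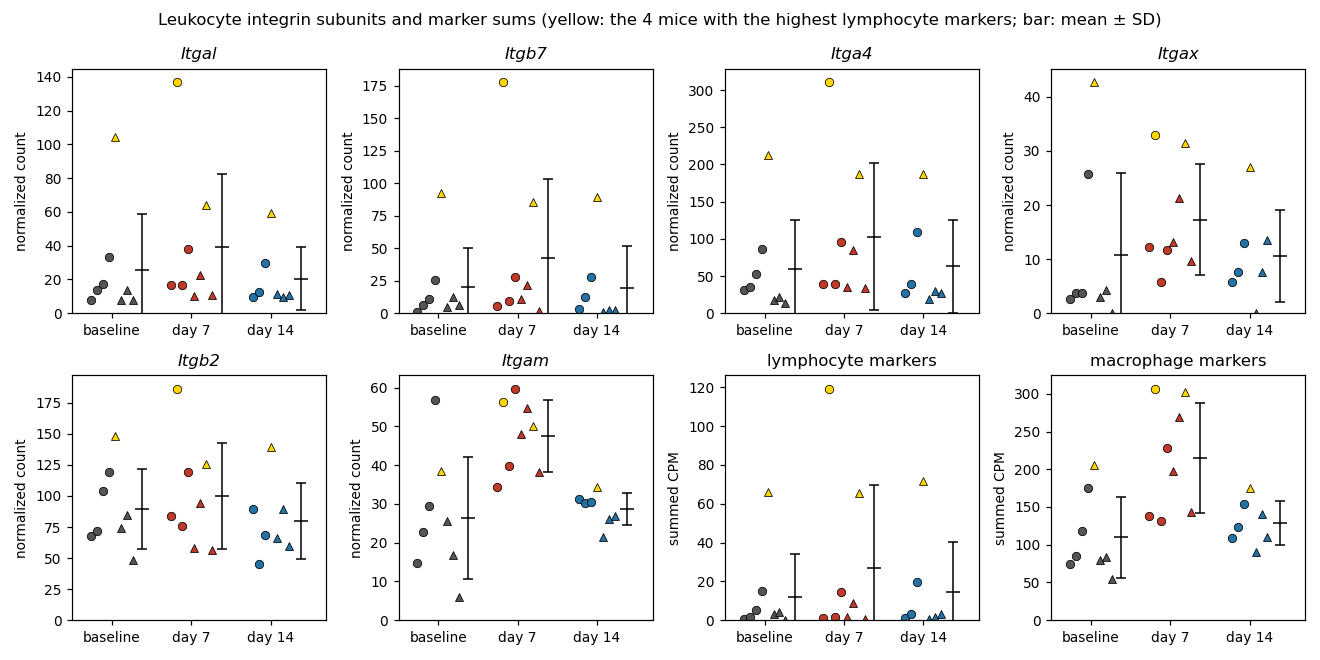
Normalized counts of 6 leukocyte integrin chains and summed CPM of 10 lymphocyte and 10 macrophage markers by mouse (circles, females; triangles, males; yellow, the 4 mice with the highest lymphocyte markers), with mean ± SD. The yellow mice are the highest of their groups for Itgal, Itgb7, Itga4, Itgax and Itgb2, whereas for Itgam they lie within the range of the other mice at baseline and day 7.

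The subunits that did not reach 10 counts in 7 mice were Itga2 and Itga2b (6 mice each), Itgae (3 mice), Itgad, Itgb2l and Lama1 (0 mice). Itga2 (a collagen receptor) had at most 24 counts, Itga2b (of platelets) 52 and Itgae (αE, of intraepithelial lymphocytes) 57, in each case in mouse 10. The members just inside the rule were Itga8 (10 mice), Itgb7 (11 mice) and Itgax (12 mice).

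The sexes were compared in the same fit. By the adjusted p of edgeR, 0 of 32 subunits passed between males and females over all time points, where 0.56% of all genes did. An unadjusted p under 0.05 was reached by 4 subunits, where 8.83% of all genes reached it, and DESeq2 passed 0. The smallest adjusted p, 0.0959, was that of Lamc3, higher in males by 0.63 ± 0.18 on the log2 scale. Females and males had mean normalized Lamc3 counts of 18.8 and 26.0 at baseline, 10.9 and 19.5 at day 7 and 11.9 and 17.9 at day 14. For a difference between the sexes in the change after injury, 0 of 32 subunits passed at day 7 with edgeR, where 0.00773% of genes did. At day 14, 0 of 32 passed, where 0% of genes did, and DESeq2 passed 0 subunits at either day. An unadjusted p under 0.05 was reached by 1 subunit at day 7 (5.45% of all genes) and by 3 at day 14 (3.66%). The smallest interaction p at day 7 belonged to Itgb8 (TGF-β-activating β8), singled out here after its values were seen: females went from 11.4 to 23.1 and males from 14.6 to 13.5 (adjusted p 0.807). Lama2 was higher at day 7 in both sexes, with mean normalized counts of 280 and 447 in females and 272 and 484 in males.

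Other basement membrane genes were examined beside the laminins. Of 16 listed partners 15 were tested, 1 was higher and 2 lower at day 7, and 4 were higher and 0 lower at day 14 by the adjusted p. Nid1 (nidogen, which links laminin to collagen IV) rose at both times, from 310 ± 50.5 normalized counts (SD, n = 8) to 562 ± 87.1 and 492 ± 78.0, log2 fold changes of 0.85 and 0.66. The collagen IV chains Col4a1 (0.10 and 0.55) and Col4a2 (-0.01 and 0.45) and the linking collagen Col15a1 (0.24 and 0.64) passed at day 14 alone. Between day 14 and day 7 the difference itself passed for Col4a1 (0.45, adjusted p 0.00291), Col4a2 (0.46, adjusted p 0.0057) and Hspg2 (0.44, adjusted p 0.0252) and not for Nid1 (-0.19, adjusted p 0.455). The proteoglycans Hspg2 (perlecan) and Agrn (agrin) were lower at day 7, by log2 fold changes of -0.38 and -0.32.

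Of 19 listed integrin ligands 15 were tested, and 4 were higher and 1 lower by the adjusted p at day 7, with 0 at day 14. The shares of all genes at day 7 were 8.5% higher and 9.49% lower. Postn (periostin, 1.71), Thbs2 (thrombospondin 2, 0.87), Fbn1 (fibrillin, 0.77) and Spp1 (osteopontin, 0.71) were higher, and Vtn (vitronectin) was lower at -0.50. The fibronectin gene Fn1 was at 0.52 ± 0.25 (adjusted p 0.158). A broad list of laminin receptors outside the integrins and of other surface proteins had 13 tested genes. Of these, Cd44 (1.01) and the tetraspanin Cd9 (0.33) were higher at day 7 and Rpsa (-0.29) was lower. Binding laminin is not the main role of Cd44, Cd9 or Rpsa, so their changes are not a result about laminin receptors. Dag1 (dystroglycan, a receptor of laminin α2) was at -0.21 ± 0.09 (adjusted p 0.1).

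Among 27 tested genes of the integrin adhesion complex, 1 was higher (Lims1, 0.30) and 5 were lower at day 7 by the adjusted p. Over all genes, 8.5% were higher and 9.49% lower. Of the 5 that were lower, Tln2 (talin 2, -0.43) and Actn4 (α-actinin 4, -0.34) fell most. The median over the 27 was -0.14. In the hemidesmosome list, Plec (plectin, the partner of integrin β4) was lower at -0.32 ± 0.06 (adjusted p 0.000633) and Dst (dystonin) higher at 0.43 ± 0.11 (adjusted p 0.00538), and 2 of 5 listed genes were tested. Scaled by total counts, 9 of the 10 partner genes that were lower at day 7 had log2 fold changes above 0, with Vtn the exception.

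All members are given in GENCODE vM21 coordinates (GRCm38). Lama2 lies on chr10:26980036-27619758 (- strand), Lama4 on chr10:38965515-39110188 (+), Lamb1 on chr12:31265234-31329644 (+), Lamc1 on chr1:153218922-153332786 (-), Lama5 on chr2:180176373-180225859 (-), Itgb1 on chr8:128685654-128733200 (+), Itgb4 on chr11:115974709-116008412 (+) and Itgam on chr7:128062640-128118491 (+). The exons of none of the 10 subunits with a passing test overlapped another gene, while those of Itga4, Itga8 and Itga7 did, over 8.04%, 5.05% and 0.11% of their exon bases, and the strand setting of the counting was not given in the sources used here.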

How the data were processed

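Pancreas head RNA of 23 mice was depleted of ribosomal RNA and sequenced as stranded, paired reads by the authors. Per the labels, the authors examined reads with FastQC, trimmed them with Trim Galore and cutadapt, aligned them to mm10 with STAR 2.5.2a and counted with featureCounts, and the deposited values are raw counts per gene symbol, 1 file per mouse. The gene annotation behind the counts is not given in the sources used here. Total counts per mouse were 7059890 to 9567446.

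Counts were scaled with TMM and tested with edgeR 4.0.16 (R 4.3.3, limma 3.58.1; estimateDisp, robust glmQLFit, glmQLFTest) on the 12500 genes kept by filterByExpr for the design. All 23 mice entered 1 fit with time point and sex; the interaction came from a fit with 6 sex-by-time groups (12933 genes) and was judged by the adjusted p alone. P-values are two-sided and adjusted with the Benjamini-Hochberg method over all genes tested, never over the subunits alone. The SE was back-calculated from the fold change and its F statistic, so it restates the test. To normalize, counts were brought to a common library size, the mean of the TMM-scaled sizes. Lengths are merged exons in GENCODE vM21, with the longest transcript as the alternative. CPM are on TMM-scaled libraries, and log2 CPM used a prior count of 2. Summary steps used Python 3.11.15 with pandas 2.3.3, numpy 2.4.6 and matplotlib 3.10.9.

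The members, roles, partner lists and marker lists were chosen with earlier results of these data known, so no test was run over a list. Values in full were given for every member with an adjusted p of at most 0.05 in any comparison, for the other members by role and range, and from the lists at most 6 genes that passed, by adjusted p at day 7. Genes that passed at day 14 alone were named beside them, and Fn1 and Dag1 for their known roles. Results of 1 of the 32 subunits are not reported here by name, although it is included in the counts. The mice are taken as separate animals from their titles. No 2 libraries of a group agreed within sampling noise (smallest chi-square per gene 4.33). The scripts were tested on simulated data. Alternatives were DESeq2 1.42.0, other scalings, filters, no covariate, only the mice of the 2 time points compared, and leaving out each mouse. A fit without the 4 mice with summed lymphocyte markers above 60 CPM was chosen after seeing the data.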

Additional observations from a re-analysis of the deposited data

Results flagged for a closer look

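In 93 groups (31 subunits at 3 time points), 5 had a lowest or highest mouse whose gap to the next, as a share of the range of log2 CPM, exceeded Dixon's 95% critical value, which chance alone does in about 1 of 20 groups. The log2 CPM was 3.40 for Itga3 in mouse 7 of baseline, the lowest of its group (next 3.84), and 5.69 for Lamb3 in mouse 8 of baseline, the highest (next 5.29). At day 7, Lamc1 in mouse 13 was highest at 6.19 (next 5.96). At day 14, Itgb5 was lowest in mouse 21 at 3.56 (next 3.80) and Lama3 in mouse 23 at 2.09 (next 2.63). The 5 values came from 5 different mice. No cause was tested. None of the 31 changed in opposite directions in every female and every male.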

How the results depend on the processing

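Of 176 comparisons of the 10 subunits with baseline under other settings, 153 kept their direction and side of the threshold, and of 460 with 1 mouse left out 436 did. Lama2, Lama4 and Lamb1 passed at both days, and Lamc1 at day 7, under every setting run. At day 7 the subunits called were 4, and 14 with total count scaling (where 30.7% of all genes were called), 2 with at least 10 counts in every mouse (fewer genes tested), 10 by the adjusted p alone and 2 to 5 with 1 mouse left out. Those higher were 6, and 22 with total counts, where 75.1% of all genes were (6 to 7 with 1 mouse left out). Those lower were 4, and 0 with total counts (0.528% of all genes) and 2 to 6 with 1 mouse left out. They were 2 with total counts without the 20 most abundant genes (6.15%) and without a filter (5.48%). They were also 2 without a covariate (9.6%) and without the 4 lymphocyte-rich mice (8.13%). At day 14, 0 were called, against 4 with total counts (3.59% of all genes), 2 without the 4 mice (0.992%) and 0 to 2 with 1 mouse left out. By the adjusted p alone 3 passed, all higher, where 0.984% of all genes were higher. Those higher were 3, and 5 with DESeq2 (0.81% of all genes), 10 with total counts (24% of all genes) and 3 to 4 with 1 mouse left out. Between day 14 and day 7, 1 was called with total counts (3.75% of all genes) and 1 with only these mice fitted (0.315%). With DESeq2 1 was higher (1.4% of all genes), and 0 to 1 were with 1 mouse left out. Lower were 7 with total counts (32.1% of all genes) and 1 with only these mice (0.267%). Between the sexes, 2 were lower in males with total counts, where 0.808% of all genes were. The median over the 32 at day 7 was 0.68 with total counts, where the median of all genes was 0.48. With total counts the log2 fold changes of Itgb4 (0.0057), Lama3 (0.034) and Lama5 (0.19) at day 7 and of Lama3 (0.083) and Lama5 (0.10) at day 14 turned positive. That of Itgam at day 14 was -0.035 without baseline mouse 8, and -0.035 to 0.36 over the fits without 1 mouse. Except where named, the cause was not tested. Depth limits the subunits with few counts, such as Lamc3 (8 to 27 counts per mouse) and Itgam (4 to 87). No paired analysis was possible because the mice of different time points share no number.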
